A study of Mus musculus with 16 samples.

Results

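Adult-only regions of intestinal epithelium are stretches of the mouse genome that carried an H3K27ac peak in both libraries of adult enterocytes and in both libraries of adult Lgr5-positive intestinal stem cells (ISC), and in no library of embryonic gut epithelium. They were found by merging the overlapping or touching peaks of all 8 lists into 79482 regions, where at least 1 bp of peak counted as presence. The members were thus chosen by the measured peak calls themselves. The rule left 1548 regions, or 1.95% of all merged regions and 9.32% of the 16603 regions with a peak in all 4 adult lists. Presence in the adult and absence in the embryo are therefore the choice of the members and not a result. What the rule did not use is how the regions differ between enterocytes and ISC, where their peaks lie and what surrounds them.

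H3K27ac is an acetyl group on a lysine of histone H3 that is laid down at active promoters and enhancers, and ChIP-seq maps it by sequencing the DNA bound by an antibody to the mark. The embryonic gut epithelium is proliferative and not yet digestive. The adult epithelium is renewed throughout life from crypt stem cells marked by Lgr5, a receptor that enhances Wnt signalling, while enterocytes are the absorptive cells that descend from them and line the villi. A region with the mark in both adult cell types may thus be shared along this lineage, from the stem cell to its differentiated progeny. Bulk libraries do not show which of the sorted cells carry the mark.

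Each of the 4 groups had 2 H3K27ac libraries, described by the series as biological duplicates. Enterocytes and ISC came from the small intestine of males at postnatal day 60 that carry an Lgr5EGFP-Cre-ERT allele. Embryonic epithelium came from the small intestine at E12.5 and E14.5, and neither the sex nor the reporter genotype of the embryos is given in the sources used here. All mice were on a mixed C57BL/6 CD1 background. For enterocytes and for the embryonic groups, the sort took EpCAM-positive cells without CD31 or CD45, which removes endothelial cells and leukocytes but does not part enterocytes from other epithelial cells. ISC were sorted for high GFP from the Lgr5 reporter. Age therefore cannot be told apart from sex, reporter genotype or, for ISC, the gate. The labelled cell types could not be checked against marker genes, because the gene table at hand is on another assembly than the mm9 positions of the peaks.

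The libraries held 34.6 to 42.2 M ChIP tags in the adult groups and 37.9 to 54.6 M in the embryonic groups. Peaks covered 38.8 Mb in each enterocyte library, 51.2 Mb in ISC replicate 1 and 76.1 Mb in ISC replicate 2, and 43.6 to 65.1 Mb in the embryonic libraries. The ISC pair thus differed in covered length while the enterocyte pair did not, and this difference returns in several results below. A peak list records where the signal passed the threshold of the peak caller, so a region without a peak may still hold signal under it.

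The adult-only regions had a median width of 1763 bp, with quartiles of 1221 and 2533 bp and a range from 374 to 11571 bp. Regions present in all 8 libraries had a median width of 2871 bp, and those with peaks in both E14.5, both ISC and both enterocyte libraries but no E12.5 library had 2463 bp. These widths are not an independent comparison, because a region's width is that of all merged peaks and the classes merge peaks of 4, 8 and 6 lists. Within the adult-only regions, peaks covered a median of 1093.5 and 1052 bp in enterocytes, against 777.5 and 1477.5 bp in ISC. The enterocyte libraries thus lay between the ISC libraries, and the groups overlapped. In such bulk libraries more cells with the mark and more of the mark per cell cannot be told apart.

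**Figure D1:**
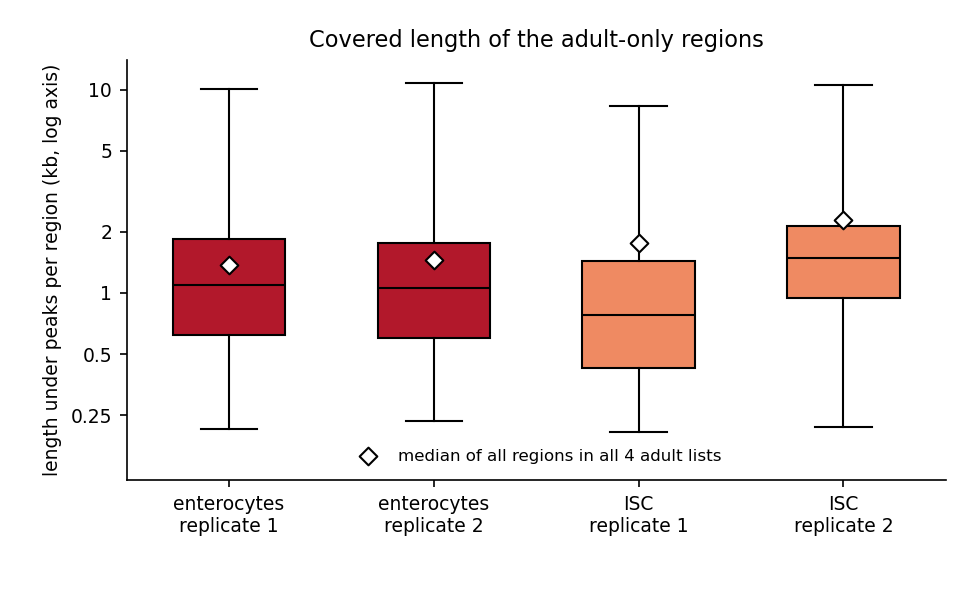
Length under peaks in each of the 1548 adult-only regions, by adult library, on a log axis in kb. Boxes span the quartiles with the median as a line, whiskers reach the lowest and highest region, and diamonds mark the median of all 16603 regions with a peak in all 4 adult lists. The enterocyte medians of 1093.5 and 1052 bp lie between those of ISC replicate 1 (777.5 bp) and ISC replicate 2 (1477.5 bp).

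Summed over the members, peaks covered 2.20 and 2.11 Mb in enterocytes and 1.68 and 2.68 Mb in ISC. As a share of all covered length in the library this was 5.68% and 5.44% in enterocytes, against 3.28% and 3.53% in ISC (means 5.56 ± 0.171% and 3.40 ± 0.177%, SD, n = 2 each). Both enterocyte shares lay above both ISC shares. These shares are given as a description. An exact two-sided permutation test of a single value over 2 against 2 libraries cannot give a p under 0.333.

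Most members held a single peak. That was so for 1012 and 1013 of the 1548 regions in enterocytes and for 1003 and 1265 in ISC, and 539 had 1 peak in each of the 4 lists. Where a list split a region, the median gap between its peaks was 159 and 176 bp in enterocytes and 174.5 and 130 bp in ISC. The 4 adult lists had a base in common in 1502 members (97%), and in the other 46 at most 3 lists shared a base. That an enterocyte peak met an ISC peak in every member follows from the merging of overlapping or touching peaks, and is not a result.

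By rank within their own list the adult-only regions were of middling strength. The percentile of a region is that of its strongest peak by −log10 q, a score of the authors' peak caller, with 100 as the strongest. The median member stood at percentiles 54.1 and 50.3 in the enterocyte lists and 40.7 and 58.2 in the ISC lists. For all regions with a peak in all 4 adult lists the medians were 72.9 and 74.7 in enterocytes and 79.1 and 83.0 in ISC. At or above the 90th percentile stood 45 and 7 members in the enterocyte lists, and 6 and 13 in the ISC lists. Those at or above the 75th percentile in all 4 adult lists numbered 26. The shares of all 16603 regions past these percentiles were not counted here. A −log10 q of at least 10 in all 4 lists was reached by 472 of the 1548 members. Of the 16603 regions with a peak in all 4 adult lists, 12062 reached it.

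The longest adult-only region, by the smallest covered length over the 4 adult lists, lay on chromosome 15 from 85528300 to 85539870 (all positions are on mm9). Peaks covered 10.1 and 10.8 kb of it in enterocytes and 8.21 and 10.5 kb in ISC, in 3 to 6 peaks per list. A second long region lay on the same chromosome from 85482974 to 85489486, with 5.04 and 5.37 kb in enterocytes and 6.21 and 6.51 kb in ISC. The nearest adult-only region to this one was 23.9 kb away. The first region was covered over nearly the same length in 3 of the 4 libraries, with ISC replicate 1 lowest, whereas in the second both ISC libraries were above both enterocyte libraries.

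Another stretch of chromosome 15 held a pair of long regions, from 97743930 to 97751121 and from 97771483 to 97777674. The first had 5.38 and 5.31 kb in enterocytes and 6.08 and 6.95 kb in ISC. The second had 5.63 and 5.63 kb in enterocytes and 5.50 and 6.19 kb in ISC. The groups did not overlap in the first and did in the second. The remaining long regions were on chromosome 4, from 148157341 to 148166165 and from 148206109 to 148213931, and both belong to a cluster described further on.

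Ranked by the lowest of its 4 percentiles, the chromosome 4 region from 148157341 came out highest, followed by a chromosome 14 region from 76886551 to 76890131. The one on chromosome 4 stood at percentiles 97.8 and 94.2 in enterocytes and 91.5 and 97.5 in ISC. Its summits in the 4 libraries lay within 53 bp of each other. The one on chromosome 14 stood at percentiles 98.5 and 94.5 in enterocytes and 93.2 and 88.9 in ISC. It was covered over 3.51 and 3.35 kb in enterocytes, against 2.04 and 3.02 kb in ISC, and no other adult-only region lay within 678 kb of it. The regions on chromosome 15 from 97771483 and from 85482974 followed. In the first, the summits lay up to 1583 bp apart, and in the second within 43 bp.

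The contrast of enterocytes with ISC asks whether regions marked in both adult cell types were covered over the same length in the differentiated cell and in the stem cell. In bp as deposited, the median member showed little difference. The median of enterocytes minus ISC was 0.0081 on the log2 scale, while over all 16603 regions with a peak in all 4 adult lists it was −0.48. Both enterocyte libraries covered more than both ISC libraries in 408 members, where the background over all these regions is 10.2%. Both covered less in 413 members, against a background of 62.9%. As shares of the members these were 26.4% and 26.7%.

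The covered lengths were then tested with limma over all 16603 regions, after each library had been centred at its median so that the general difference in peak width was removed. On this scale 329 members (21.3%) had more covered length in enterocytes than in ISC, at a Benjamini-Hochberg adjusted p under 0.05 over all regions, where the background is 12.1%. A further 75 members (4.84%) had less, where the background is 9.75%, and 1144 were not called. The median difference of the members was 0.51 on the log2 scale, with quartiles of −0.10 and 1.15, against 0.02 for all regions tested. Without centring the split turned, to 70 members with more and 116 with less (4.52% and 7.49%, backgrounds 1.9% and 19.1%). Of the member calls, 37.6% were then higher in enterocytes, beside 9.05% of the calls over all regions. With centring these shares were 81.4% and 55.3%. Over both directions the background of the centred fit is 21.8%. With a library left out, its group held 1 library, and the calls shifted over all regions as well as over members. Without ISC replicate 1, limma called no region of any class, members or others. The median difference of the members was 0.36 without ISC replicate 1 and 0.66 without ISC replicate 2. It was 0.46 without enterocytes replicate 1 and 0.61 without enterocytes replicate 2. Over all regions these medians were −0.00076 to 0.041.

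Regions already on at E14.5 and present in both adult cell types had 315 of 1429 called higher and 120 called lower in enterocytes, or 22.0% and 8.40%. Regions present in all 8 libraries gave 1105 and 1312 of 12282, or 9.0% and 10.7%. The median differences of these classes were 0.34 and −0.05 on the centred log2 scale, beside 0.51 for the adult-only regions. As deposited they were −0.17 and −0.55, beside 0.0081. Centring moves all classes by the same amount, and the difference between classes itself was not tested.

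**Figure D2:**
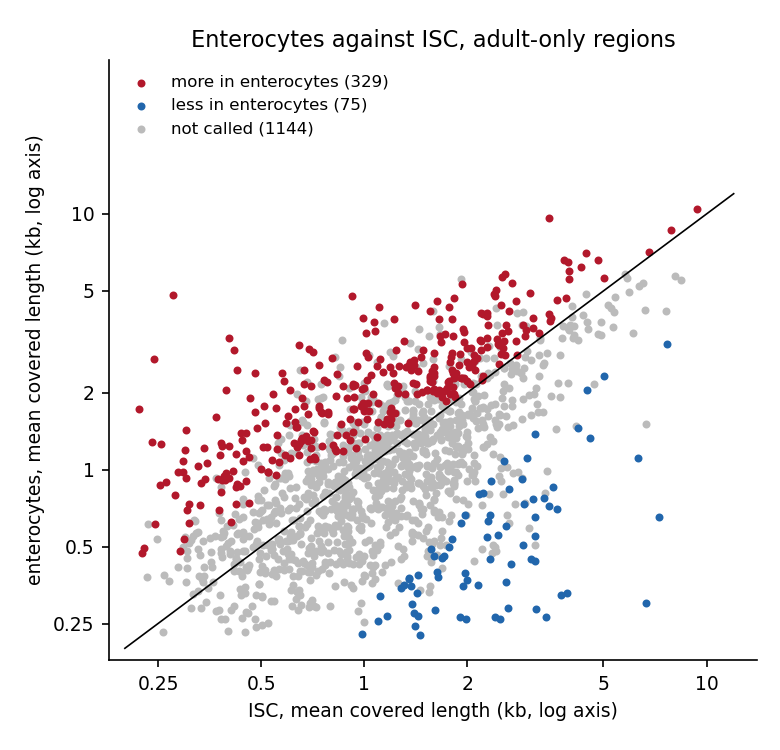
Mean covered length of the 1548 adult-only regions in enterocytes (vertical) and ISC (horizontal), in kb on log axes, with the line of equal length. Red points are the 329 regions with more and blue points the 75 with less covered length in enterocytes by limma on centred values, and grey points are the 1144 not called.

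Members with more covered length in enterocytes had medians of 2137 and 2080 bp in enterocytes and 764 and 1413 bp in ISC. Members with less had 411 and 502 bp in enterocytes and 1924 and 2642 bp in ISC. The members not called had 944 and 910 bp in enterocytes, between the 731 and 1431 bp of the ISC libraries. The least covered member of each list had 207 to 234 bp, so a member at about that length in 1 cell type lay near the shortest peak found there.

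The region with the largest difference in favour of enterocytes lay on chromosome 10 from 74681900 to 74687292. Peaks covered 5.31 and 4.30 kb of it in enterocytes, against 0.208 and 0.346 kb in ISC, a log2 difference of 4.66 ± 0.257 on the centred scale (SE, limma adjusted p = 0.00565). Most of the region was thus under peaks in both enterocyte libraries, while each ISC library had a single short peak there. A region on chromosome 8 from 89289016 to 89291952 had 2.53 and 2.91 kb in enterocytes and 0.213 and 0.275 kb in ISC (log2 difference 3.99 ± 0.258, adjusted p = 0.00565). On chromosome 10 from 62617167 to 62620937 peaks covered 3.77 and 2.75 kb in enterocytes and 0.279 and 0.527 kb in ISC (3.57 ± 0.307, adjusted p = 0.0063). The fourth, on chromosome 7 from 109206859 to 109208769, had 1.53 and 1.91 kb in enterocytes and 0.222 and 0.219 kb in ISC (3.46 ± 0.317, adjusted p = 0.00646). In all 4 regions each ISC library held a single peak, and no ISC length came near an enterocyte length. These ISC peaks were weak, with −log10 q of 2.31 to 9.82.

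The reverse pattern was largest on chromosome 7 from 97176435 to 97183348, with 0.322 and 0.281 kb in enterocytes and 6.41 and 6.91 kb in ISC (log2 difference −3.96 ± 0.206, limma adjusted p = 0.00565). Its enterocyte peaks were among the weakest of their lists, at percentiles 0.373 and 12.7, and its ISC peaks stood at 69.9 and 70.1. A region on chromosome 15 from 54951397 to 54955436 had 0.245 and 0.286 kb in enterocytes and 2.74 and 4.04 kb in ISC (−3.15 ± 0.245, adjusted p = 0.0063). On chromosome 9 from 66064444 to 66068832 peaks covered 0.213 and 0.435 kb in enterocytes and 3.12 and 4.39 kb in ISC (−3.10 ± 0.364, adjusted p = 0.00935). A region on chromosome 5 from 149219774 to 149223807 had 0.297 and 0.359 kb in enterocytes and 3.80 and 4.03 kb in ISC (−3.08 ± 0.232, limma adjusted p = 0.00617). The enterocyte peaks of these regions had −log10 q of 1.79 to 6.75. With peaks of −log10 q of at least 10, none of the 8 regions with the largest differences in either direction could be tested. Without ISC replicate 1 none of these 8 regions passed the threshold, as no region of any class did. Their log2 differences were then 3.31 to 4.48 and −2.93 to −3.83. Without ISC replicate 2 the region on chromosome 9 missed the threshold too, with a log2 difference of −3.04.

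Of the long and strong regions, 4 passed the same test, all with more centred covered length in enterocytes. The log2 difference was 0.67 ± 0.113 for the longest region on chromosome 15 (limma adjusted p = 0.0171), 0.97 ± 0.146 for that on chromosome 14 (adjusted p = 0.0133), and 0.64 ± 0.129 and 0.59 ± 0.122 for the regions on chromosome 4 from 148157341 and from 148206109 (adjusted p = 0.0262 and 0.0275). Without centring none of these 4 passed, with differences of 0.086 to 0.47. Without ISC replicate 1 none passed, as no region of any class did. The region from 148157341 also missed the threshold without ISC replicate 2, and the region from 148206109 without ISC replicate 2 or enterocytes replicate 1. The region from 148206109 missed it as well with peaks of −log10 q of at least 10 (log2 difference 0.43, adjusted p = 0.0756). The regions on chromosome 15 from 97771483, 97743930 and 85482974 had 0.45, 0.22 and 0.21 and did not pass. The one from 97771483 did pass when scaled by total covered length (0.63, adjusted p = 0.029) and with 500 bp added (0.62, adjusted p = 0.0203). Their sign turned without centring, to −0.052, −0.28 and −0.29.

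**Figure D3:**
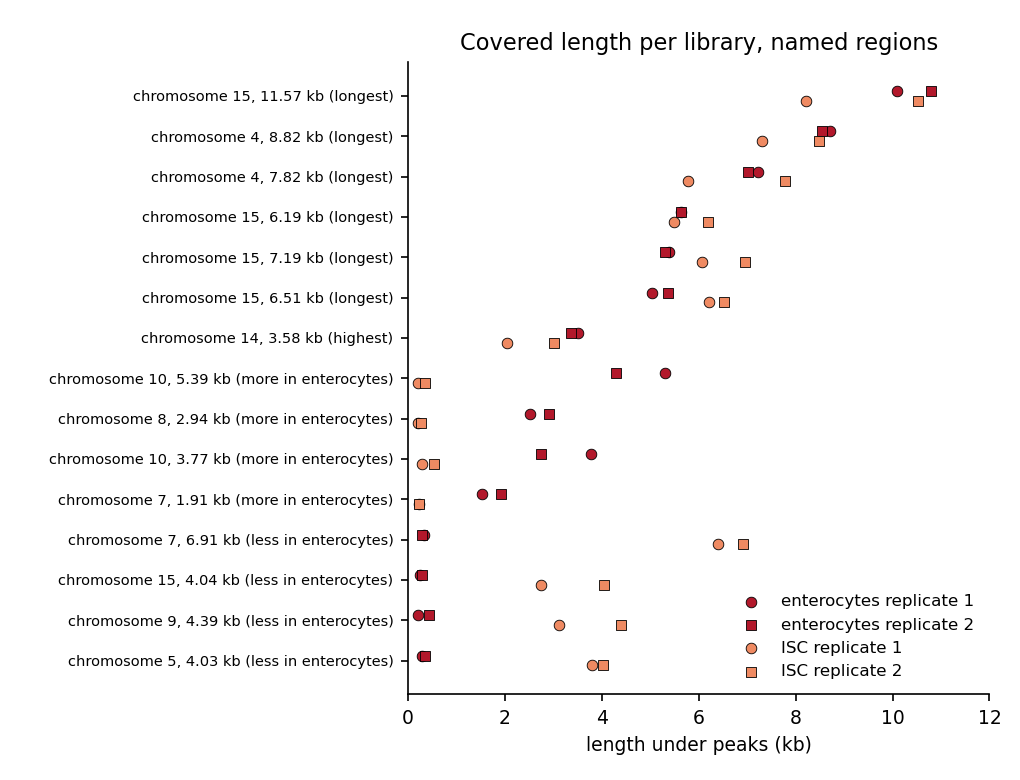
Length under peaks in kb in each adult library for 15 adult-only regions: the 6 longest, the strongest by rank that are not among them, and the 4 with the largest differences in each direction between enterocytes and ISC. Each row is a region, named by chromosome and width, and each point is a library. In the first rows the cell types lie close together, and in the last 8 rows 1 cell type holds peaks of under 0.6 kb.

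Inside the adult-only regions, covered bases matched better between replicates than between cell types. The Jaccard index, the bases under peaks in both libraries over those in either, was 0.711 for the enterocyte pair and 0.604 for the ISC pair. It was 0.528 ± 0.0573 (SD) over the 4 pairs of an enterocyte and an ISC library, with a range of 0.470 to 0.577. Over all regions in all 4 adult lists the index was 0.786 for the enterocyte pair, 0.775 for the ISC pair and 0.599 ± 0.0221 across cell types. The adult-only regions thus had the lower index between replicates and in the mean across cell types. For enterocytes replicate 1 with ISC replicate 2 it was 0.577, beside 0.575 over all these regions. Regions on from E14.5 into both adult cell types had 0.739 and 0.694 between replicates and 0.569 ± 0.0287 across cell types. A lower index than over all regions was thus not particular to the adult-only regions.

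Covered length on the log2 scale had a Pearson correlation over the 1548 members of 0.820 for the enterocyte pair and 0.817 for the ISC pair. Across cell types it was 0.357 to 0.536. Over all 16603 regions it was 0.901, 0.925 and 0.592 to 0.732. For regions on from E14.5 into both adult cell types it was 0.841, 0.884 and 0.433 to 0.581. These are descriptions across regions, which share their libraries and depth.

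The strongest summits of enterocytes and ISC lay close together. Their median distance was 127 ± 4.27 bp over the 4 pairs of libraries (SD, range 121 to 131 bp), beside 109 bp between the enterocyte replicates and 87.0 bp between the ISC replicates. Within 200 bp of each other lay 61.4 ± 1.18% of the summits across cell types, 66.5% in the enterocyte pair and 71.6% in the ISC pair. Among the 539 members with 1 peak in every adult list, the distance across cell types was 91.0 ± 2.83 bp, equal to the 91.0 bp between the enterocyte replicates and above the 73.0 bp of the ISC replicates. For all regions in all 4 adult lists the distance was 72.5 ± 4.04 bp across cell types and 66.0 and 50.0 bp between replicates.

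Embryonic peaks were seldom far away. The median distance from an adult-only region to the nearest embryonic peak was 6055 bp, with quartiles of 2395 and 14770 bp. The nearest embryonic peak lay within 1 kb of 160 members (10.3%), from 1 to 5 kb from 521 (33.7%), from 5 to 20 kb from 563 (36.4%), from 20 to 50 kb from 194 and at least 50 kb from 110 (7.11%). The most isolated were a neighbouring pair on chromosome 17, from 77599084 to 77599705 and from 77599787 to 77600366. Their nearest embryonic peaks lay 909 and 908 kb away. The first of the pair had 0.597 and 0.535 kb in enterocytes and 0.353 and 0.505 kb in ISC. The second had 0.448 and 0.330 kb in enterocytes and 0.498 and 0.580 kb in ISC, so that the mark was short in every adult library there.

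Distance to embryonic peaks and the difference between enterocytes and ISC showed no steady trend. From the nearest to the farthest of these 5 classes, 18.1, 24, 21.3, 17.0 and 20.0% of the members had more covered length in enterocytes, and 4.38, 5.37, 5.15, 5.15 and 0.909% had less. The last share is 1 region of 110. Median widths were alike as well, at 1697, 1840, 1806, 1654 and 1592 bp.

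At the middle of the members, 81.8% and 80.2% lay under a peak in the enterocyte lists, 68.9% and 93.2% in the ISC lists and none in the embryonic lists, as the rule demands. At 10 kb from the middle, averaged over both sides, the shares were 12.4% and 11.5% in enterocytes, 11.5% and 16.5% in ISC, 8.43% and 7.49% at E14.5 and 4.72% and 6.40% at E12.5. The embryonic shares were thus below the adult ones at this distance in all 4 libraries, and those of E14.5 above those of E12.5.

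**Figure D4:**
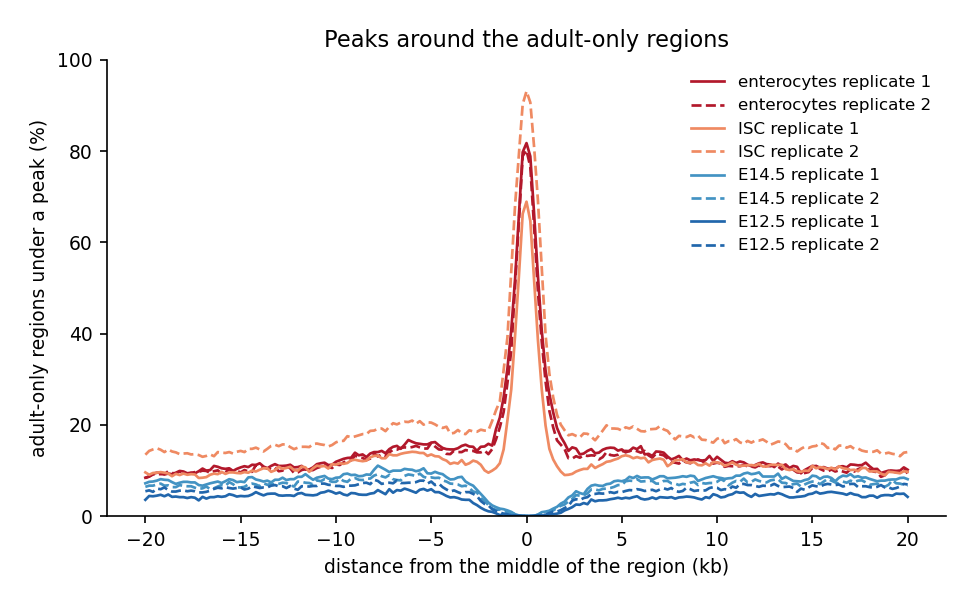
Share of the 1548 adult-only regions (%) that lie under a peak at each distance (kb) from the middle of the region, for the 8 libraries. Solid and dashed lines are replicates 1 and 2. The adult lines peak at 68.9 to 93.2% in the middle, the embryonic lines fall to 0 there, and 10 kb away the adult lines run at 11.5 to 16.5% and the embryonic lines at 4.72 to 8.43%.

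Other members left aside, the nearest region that was not adult-only by the rule lay at a median of 576 bp. For 992 members (64.1%) it was a region found in adult lists alone but not in all 4, a kind that makes up 28.9% of all other regions. For 237 members (15.3%) it was a region present in all 8 libraries, which make up 15.8%. Regions of embryonic lists alone were nearest to only 53 members (3.42%), although they make up 33.2% of all other regions, and regions of some adult and some embryonic lists were nearest to 266 (17.2%, beside 22.2%). The nearest non-member region was thus mostly one of adult lists alone. The shares set beside these counts are those of all other regions, not those of the neighbours of other adult regions. Whether other regions with adult peaks have such neighbours too was not tested.

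Adult-only regions lay near each other in 648 of 1548 cases (41.9%), with another member within 50 kb. For the 1429 regions on from E14.5 into both adult cell types the share was 33.45% (478 regions). It was 52.0% for the 4035 regions of all 4 embryonic lists alone, 54.3% for the 3593 regions of ISC lists alone and 68.6% for the 2748 regions of enterocyte lists alone. The adult-only share was thus above the first of these classes and below the others, and the classes differ in size. The differences were not tested. Another member lay within 20 kb of 503 adult-only regions (32.5%). Only overlapping or touching peaks were merged, so a stretch of peaks broken by gaps can count as several members, here and in the groups below. Chained at 50 kb, the members formed 267 groups of at least 2, and 900 stood alone. The largest group held 7 members, 4 groups held 6, and 23 groups held at least 4. The group of 7 and the 2 most compact groups of 6 are described here.

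The group of 7 lay on chromosome 12 from 80192869 to 80275846 and held members of both kinds. The first member, from 80192869 to 80194759, had 0.345 and 0.555 kb in enterocytes and 1.49 and 1.89 kb in ISC (log2 difference −1.44 ± 0.310, limma adjusted p = 0.0307). The next, from 80203202 to 80207326, had 0.680 and 0.762 kb in enterocytes and 2.82 and 4.12 kb in ISC (−1.74 ± 0.169, adjusted p = 0.00691). Both were wider in ISC, with no overlap between the groups.

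The middle of this stretch showed the reverse. From 80242526 to 80243844 peaks covered 1.31 and 1.22 kb in enterocytes and 0.521 and 0.245 kb in ISC (2.33 ± 0.536, limma adjusted p = 0.0397). From 80247214 to 80249639 they covered 2.36 and 1.98 kb in enterocytes and 0.466 and 0.864 kb in ISC (2.27 ± 0.269, adjusted p = 0.00917), and from 80249798 to 80251974 they covered 2.01 and 2.05 kb in enterocytes and 1.57 and 1.86 kb in ISC (0.76 ± 0.152, adjusted p = 0.0257). The other members did not pass (adjusted p = 0.0645 and 0.164). Over the whole 83.0 kb stretch, peaks of any kind covered 17.3 and 18.3 kb in enterocytes, 14.8 and 21.3 kb in ISC and 1.8 to 2.95 kb in the embryonic libraries.

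On chromosome 4, from 148157341 to 148213931, 6 members spanned 56.6 kb and included 2 of the 6 longest. The region that opens the group had 8.71 and 8.55 kb in enterocytes and 7.31 and 8.48 kb in ISC. The region that closes it had 7.22 and 7.02 kb in enterocytes and 5.78 and 7.78 kb in ISC. Between them, the region from 148190411 to 148199010 had 3.95 and 4.43 kb in enterocytes and 6.58 and 8.60 kb in ISC, without passing the test (limma adjusted p = 0.0986). Peaks of any kind covered 30.1 and 28.8 kb of this stretch in enterocytes and 29.5 and 42.2 kb in ISC. At E14.5 they covered 1.58 and 0.883 kb, and at E12.5 2.95 and 3.54 kb, all of it between members, where adult libraries had peaks too.

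On chromosome 7, the group from 97167535 to 97244700 also had 6 members and contained the region with the largest excess in ISC. No embryonic library had any peak in its 77.2 kb. Peaks covered 8.32 and 8.47 kb in enterocytes and 22.0 and 30.4 kb in ISC. Besides the region from 97176435, the member from 97167535 to 97169657 was called lower in enterocytes, with 0.619 and 0.375 kb against 1.41 and 2.12 kb in ISC (log2 difference −1.34 ± 0.345, limma adjusted p = 0.0474). The other 4 members were not called, and the member from 97206646 to 97210338 had 2.25 and 2.86 kb in enterocytes and 2.95 and 3.69 kb in ISC.

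**Figure D5:**
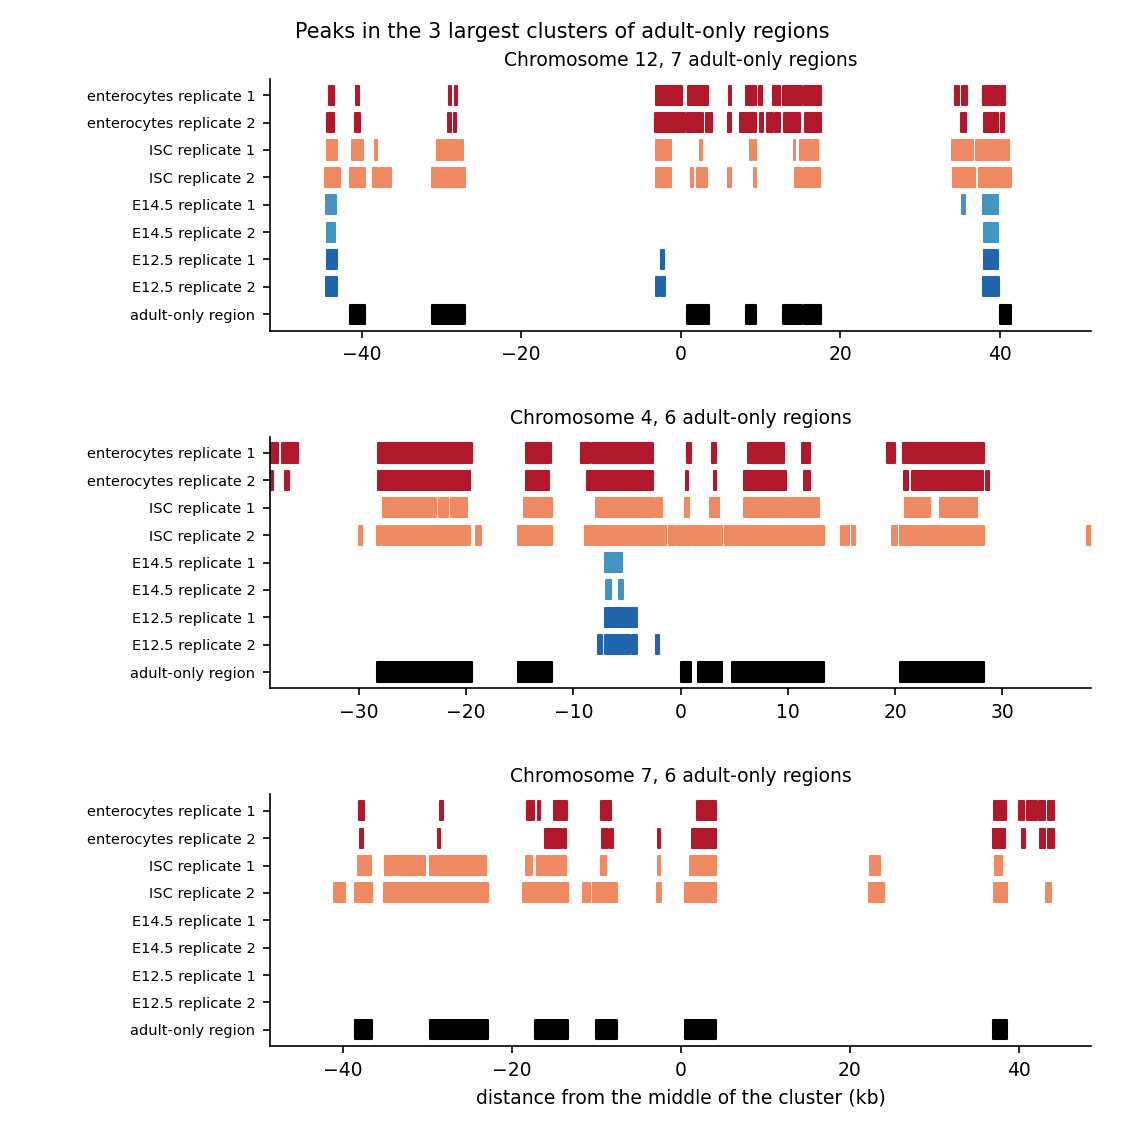
Peaks of the 8 libraries in 3 groups of adult-only regions with 6 or 7 members, as distance in kb from the middle of each group. Each row is a library and each bar a peak, and black bars mark the adult-only regions. The stretch on chromosome 7 has no embryonic peak, while those on chromosomes 12 and 4 hold embryonic peaks between or beside the adult-only regions.

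Near misses show which list set the membership. In 450 regions all 4 adult lists and 1 embryonic list had a peak. That list was E14.5 replicate 1 in 303, E14.5 replicate 2 in 103, E12.5 replicate 1 in 5 and E12.5 replicate 2 in 39. The embryonic peak was small there, with a median covered length of 338, 284, 207 and 322 bp in the same order. The longest such region lay on chromosome 19 from 29339271 to 29347171, with 7.53 and 6.83 kb in enterocytes, 5.70 and 6.86 kb in ISC and 0.761 kb in E14.5 replicate 2. The weakest single embryonic peak that kept a region out had a −log10 q of 1.42, and the weakest adult peak that kept a region in had 1.44.

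A further 1537 regions had a peak in 3 adult lists and in no embryonic list. The missing list was ISC replicate 1 in 976 of them, enterocytes replicate 1 in 315, enterocytes replicate 2 in 228 and ISC replicate 2 in 18. ISC replicate 1 was thus the list most often missing, and leaving it out gave 2540 adult-only regions. The longest of these near misses, on chromosome X from 68470603 to 68477111, had 3.36 kb in enterocytes replicate 1, none in enterocytes replicate 2, and 3.08 and 5.62 kb in ISC.

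The members were spread over all autosomes and the X chromosome. Their share among the regions with a peak in all 4 adult lists ranged from 7.48% on chromosome 11 (103 of 1377) to 12.8% on chromosome 12 (77 of 601). On the X chromosome it was 9.06% (29 of 320), close to the 9.32% of the whole genome. None of the 4 such regions on the Y chromosome was a member.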

How the data were processed

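H3K27ac ChIP-seq peak lists of 8 libraries were used, 2 each of enterocytes, ISC, E12.5 and E14.5. The submitters' processing notes name mm9 and the tools MACS2, SAMtools 1.2, Bowtie 1.1.2 and bcl2fastq 1.8.4. Per the file headers, each library was called against its own input with MACS 2.1.0.20140616 for narrow peaks (q-value cutoff 0.05), from 51 bp tags with 1 tag kept per position. The deposited pileup signal, fold enrichment ratio, −log10 p and −log10 q of each peak are the authors' MACS output, and were used to describe, rank and filter peaks inside their own list. The deposited lists give no counts per region, so precision rests on 2 libraries a group.

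From these, peaks were merged and covered bp and summits taken per region (Python 3.11.15, pandas 2.3.3, numpy 2.4.6). Enterocytes and ISC were compared over the 16603 regions with a peak in all 4 adult lists: log2 covered bp, centred at the library median, limma 3.58.1 in R 4.3.3 (eBayes with trend and robust), with 2 residual degrees of freedom. Embryonic libraries stayed out of the fit, since the rule sets them to 0 in every member. The sources used here do not say whether duplicates came from separate animals, and the p-values cover only the spread between duplicates. On simulated data with 16603 regions, the fit found 79.0% of changes of 1 and 100% of changes of 2 on the log2 scale, with 12 false calls. The simulated spread was the typical one at each level, the same for both cell types, and left out outlying pairs of duplicates. These rates may therefore be too favourable for the real libraries.

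Members and lists were chosen with earlier results of these data known. Named regions are the 6 longest, the 4 highest by rank, the 4 with the largest called difference in each direction, the 3 largest groups (ties by span) and the longest near misses. The gene and sequence tables at hand are on GRCm38.p6, so gene names, gene lists and sequences were not used here.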

Additional observations from a re-analysis of the deposited data

How the results depend on the processing

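The crossed replicate numbers and the fit that was not robust were added after seeing the data. The number of adult-only regions was 915 with peaks of −log10 q of at least 10, where 472 of the 1548 members overlapped such a region, and 1553 to 2540 with a library left out, the highest without ISC replicate 1. A group with 1 library meets the rule more easily. It was 1713 with equal numbers of peaks, 1115 with merging within 1 kb and 1269 with 50% cover, where 1185, 1166 and 458 of the 1548 members overlapped such a region.

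Members called higher and lower in enterocytes numbered 70 and 116 without centring (backgrounds 1.9% and 19.1%). They numbered 680 and 110 when scaled by total covered length (43.9% and 7.11% of members, backgrounds 22.8% and 10.9%). For regions in at least 2 adult lists with 500 bp added they numbered 805 and 50 (52.0% and 3.23%, backgrounds 27.1% and 20.6%). With −log10 q of at least 10 they were 98 and 19 of the 472 testable members (20.8% and 4.03%, backgrounds 8.19% and 8.26%). With a library left out they ranged from 0 to 597 and from 0 to 176, both 0 without ISC replicate 1. Each such fit left 1 library in a group, and the calls over all regions shifted as well, so the shift was not particular to members. The median log2 difference of the members was 0.36 to 0.66 in these fits, and over all regions −0.00076 to 0.041. In the fits scaled by total length and without either enterocyte library, limma took the spread as known (infinite prior degrees of freedom). The fit that was not robust called 357 members higher and 81 lower (backgrounds 12.7% and 10.4%). Without centring the median difference was 0.0081. The regions on chromosome 15 from 97771483, 97743930 and 85482974 turned to −0.052, −0.28 and −0.29 without centring.

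With the replicate block the calls were 235 and 52 (backgrounds 8.53% and 6.99%). Same-numbered libraries deviated with a correlation of −0.12 over regions. With crossed numbers the calls were 463 and 100 (backgrounds 14.4% and 12.2%). The summit distance was 91.0 bp for members with 1 peak per list. The share of members near another was 32.5% within 20 kb and 51.2% within 100 kb. The distance to embryonic peaks was 8963 bp with −log10 q of at least 10 and 12577 bp to regions in all 4 embryonic libraries. The causes of these shifts were not tested.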
